A study of Mus musculus with 8 samples.

Results

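The miR-29 family was measured in mouse dendritic cells with and without a CpG oligonucleotide. Its members were taken by their names on the array, and all 4 named entries were found (mmu-miR-29a, mmu-miR-29b, mmu-miR-29b* and mmu-miR-29c) among the 567 mouse miRNAs measured. miR-29a, miR-29b and miR-29c are guide strands, and miR-29b* is the opposite arm of a miR-29b hairpin. The cells were grown from C57BL/6 bone marrow, an inbred wild-type strain, with the growth factor GM-CSF at 40 ng/ml, and non-adherent cells were collected on day 9. They then spent a night with 10 µM ODN1826, a class B CpG oligonucleotide that is sensed through the receptor TLR9, or without it. The control is called medium alone at one point in the labels and PBS at another, and a control oligonucleotide without CG pairs is not among the 8 samples. RNA of 4 untreated and 4 CpG-treated samples was hybridised to 8 one-colour miRNA arrays. The labels number the samples and do not tie them to separate animals or cultures, so a p-value here speaks of the scatter among these 8 samples, some of which may be technical. GM-CSF cultures of this kind hold mixed myeloid cells, and in bulk RNA fewer cells of a type and less RNA per cell cannot be told apart.

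A microRNA is cut from a hairpin as a short duplex, of which the guide strand is loaded into an Argonaute protein and the passenger strand, marked with a star in the older names, is mostly lost. The guide finds messenger RNAs through its seed, so miRNAs with the same seed share most of their targets. Well-studied miR-29 targets include the DNA methyltransferases Dnmt3a and Dnmt3b, the Tet enzymes that oxidise methylated cytosine, the survival protein Mcl1, and many collagens. In immune cells the family is known for repressing interferon gamma and the transcription factors T-bet and Eomes in lymphocytes. The sequence of miR-29b ends in a short element, AGUGUU, that was found in other work to direct it to the nucleus, and the bases in the middle of the guide were found to affect how fast miR-29b decays.

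The mature sequences are shown because the family is defined by its seed, here bases 2 to 8 in capitals, and because its guides differ at very few other positions. They are the RefSeq entries on the build GRCm38.p6, and each member was matched to 1 mature name of the table. That of miR-29b is listed for both miR-29b hairpins.
miR-29a-3p (chr6:31062673-31062694, minus strand): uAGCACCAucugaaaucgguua
miR-29b-3p (chr6:31063025-31063047, minus strand, and chr1:195037091-195037113, plus strand): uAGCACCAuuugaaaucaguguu
miR-29c-3p (chr1:195037600-195037621, plus strand): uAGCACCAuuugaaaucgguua
miR-29b-1-5p, the array's miR-29b* (chr6:31063067-31063088, minus strand): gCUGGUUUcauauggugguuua
miR-29c-5p, the array's miR-29c*, not a member (chr1:195037562-195037583, plus strand): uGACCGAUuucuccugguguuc
miR-29b-2-5p, the star arm of the other miR-29b hairpin, not a member (chr1:195037050-195037074, plus strand): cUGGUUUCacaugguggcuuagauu

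The seed AGCACCA was held by 3 of the 1679 mature mouse miRNAs in the table, which were the 3 miR-29 guides. The seed of miR-29b*, CUGGUUU, was held by 1 entry, itself. Counted from the 5′ end, miR-29a and miR-29c differed at 1 of 22 positions, C10U. From miR-29a to miR-29b there were 4 substitutions, C10U, G18A, U21G and A22U, and from miR-29b to miR-29c there were 3, A18G, G21U and U22A. The star arms of the 2 miR-29b hairpins, slid along each other, matched at 19 of 21 bases, with U11C and U19C counted on miR-29b-1-5p. Whether the array's probes separate sequences this similar was not tested.

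The hairpins lie in 2 clusters. Mir29a and Mir29b-1 sit on chromosome 6 with 275 bases between them, and Mir29b-2 and Mir29c sit on chromosome 1 with 426 bases between them, inside the long non-coding RNA gene A330023F24Rik. The miR-29b guide is made from both clusters and its sequence does not tell which, whereas the miR-29b* sequence comes from Mir29b-1. The array's annotation, on the older build mm9, places the miR-29b* target at chr6:31013067-31013088 and that of miR-29b at chr1:196863287-196863307. The hairpins of the 2 star arms measured are given with both mature arms in capitals, the 5′ arm first.
Mir29b-1 (chr6:31063023-31063093, minus strand): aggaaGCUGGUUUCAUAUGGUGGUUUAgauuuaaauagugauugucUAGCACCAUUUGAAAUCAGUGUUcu
Mir29c (chr1:195037547-195037634, plus strand): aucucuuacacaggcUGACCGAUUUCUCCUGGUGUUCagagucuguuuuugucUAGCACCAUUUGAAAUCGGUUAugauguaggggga

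The arrays of the CpG group were brighter than those of the untreated group. The 75th percentile of signal over the 177 mouse miRNAs detected on every array was 101 to 144 units in the untreated group and 157 to 280.5 units in the CpG group. Between 191 and 203 miRNAs were detected per untreated array and between 213 and 236 per CpG array. Values on the log2 scale below were divided by that percentile on each array, so that 0 is the array's 75th percentile, and 212 miRNAs were tested, each detected on 3 or more arrays of either group. The median change of the 212 was -0.19 on this scale, and every change is given relative to the percentile unless it is said to be relative to the median.

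The 3 guide arms gave bright spots and had no detectable change relative to the other miRNAs, while the faint passenger arm miR-29b* was higher with CpG on the scale used here, a value that depended on how background was removed. All 4 members were detected on all 8 arrays. Probes differ in how strongly they bind, so the levels of different members are not set against each other, and each member is compared with itself between groups.

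mmu-miR-29a had scaled log2 signals of 3.75, 3.29, 3.50 and 3.26 in untreated replicates 1 to 4, and of 3.84, 3.16, 3.55 and 3.42 with CpG. The groups overlapped, and replicate 1 was the brightest in each group. The means were 3.45 ± 0.23 and 3.50 ± 0.28 (SD, n = 4 each). The change was 0.05 (SE 0.18, 95% interval -0.36 to 0.46, limma adjusted p = 0.843).

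mmu-miR-29b, the guide made by both clusters, had scaled log2 signals of 3.101, 2.52, 2.61 and 2.46 untreated and of 3.22, 2.41, 2.76 and 2.57 with CpG. The order of the 8 arrays was that of miR-29a, with replicate 1 again the brightest in each group and CpG replicate 2 again the dimmest of all 8. The change was 0.07 (SE 0.21, 95% interval -0.41 to 0.55, limma adjusted p = 0.816).

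mmu-miR-29c had scaled log2 signals of 1.82, 1.24, 1.04 and 1.33 untreated and of 1.57, 0.78, 1.02 and 1.10 with CpG. Here 2 of the CpG arrays lay below every untreated one and the groups overlapped. The change was -0.24 (SE 0.22, 95% interval -0.73 to 0.25, limma adjusted p = 0.394), close to the median of all tested miRNAs. The sign of the miR-29c change turned under other scalings, to 0.14 with quantile normalization and 0.31 with the bright control features named hur. The signs of the miR-29a and miR-29b changes, which are near 0, also turned without CpG replicate 1, to -0.07 and -0.09.

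mmu-miR-29b*, the passenger arm from Mir29b-1, had scaled log2 signals of -4.49, -4.67, -4.60 and -5.26 untreated and of -3.41, -4.03, -3.85 and -4.37 with CpG. Every CpG array lay above every untreated array. The means were -4.76 ± 0.34 and -3.92 ± 0.40 (SD, n = 4 each), a change of 0.84 (SE 0.24, 1.79-fold, 95% interval 0.31 to 1.38, limma adjusted p = 0.0458). Counted from the most positive change, it ranked 15 among the 212. It was thus the 1 member of 4 that passed the threshold, where 14.2% of all tested miRNAs passed in either direction 7.55% passed as higher and 6.60% as lower. Groups lying apart were seen for 26.9% of the tested miRNAs, and with CpG above for 7.08%.

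The adjusted p of miR-29b* lay just under the threshold and crossed it easily. It rose to 0.0568 with scaling to the median, 0.0564 with quantile normalization, 0.0859 with cyclic loess and 0.0554 with the slide row as a block. Leaving out 1 array kept the change between 0.67 and 0.99 and lost the call in 6 of 8 cases. These were untreated replicate 1 (adjusted p = 0.0795), 2 (0.101), 3 (0.0521) or 4 (0.148) and CpG replicate 2 (0.0916) or 3 (0.109).

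The value also depended on how background was removed. Under the normexp method, which models background, the miR-29b* change was -0.02 with nothing added, a setting chosen after seeing the data (limma adjusted p = 0.933). In that setting 86 of 93 called miRNAs were lower and the median change was -0.32. With 50 units added and quantile normalization the miR-29b* change was 0.10 (limma adjusted p = 0.116), beside a median of -0.02. With 50 units added and the percentile scaling the miR-29b* change was -0.40 (limma adjusted p = 0.0190). There 132 of 138 called miRNAs were lower and the median change was -0.36. The spots of miR-29b* averaged 4.61 ± 1.14 units untreated and 14.1 ± 1.33 units with CpG (SD, n = 4 each) before scaling, well under the 50 units added.

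Before scaling, where the CpG arrays were brighter as a whole, the brighter probes of miR-29b* were higher with CpG under normexp as well. With nothing added, their means were 25.0 units untreated and 53.1 with CpG for one, and 11.7 and 19.97 units for the other. The remaining pair of probes stood at 9.31 and 9.32 units untreated and 8.15 and 9.93 units with CpG. The negative control spots averaged 9.60 and 9.63 units in the untreated and CpG arrays under this setting. In the scanner's processed signal used here they averaged 0.856 and 0.864 units. The unscaled probe values are not relative to the other miRNAs. In unscaled processed signal the median change of the 212 tested miRNAs was 0.60, and 39.6% of them lay apart with CpG above.

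**Figure D1:**
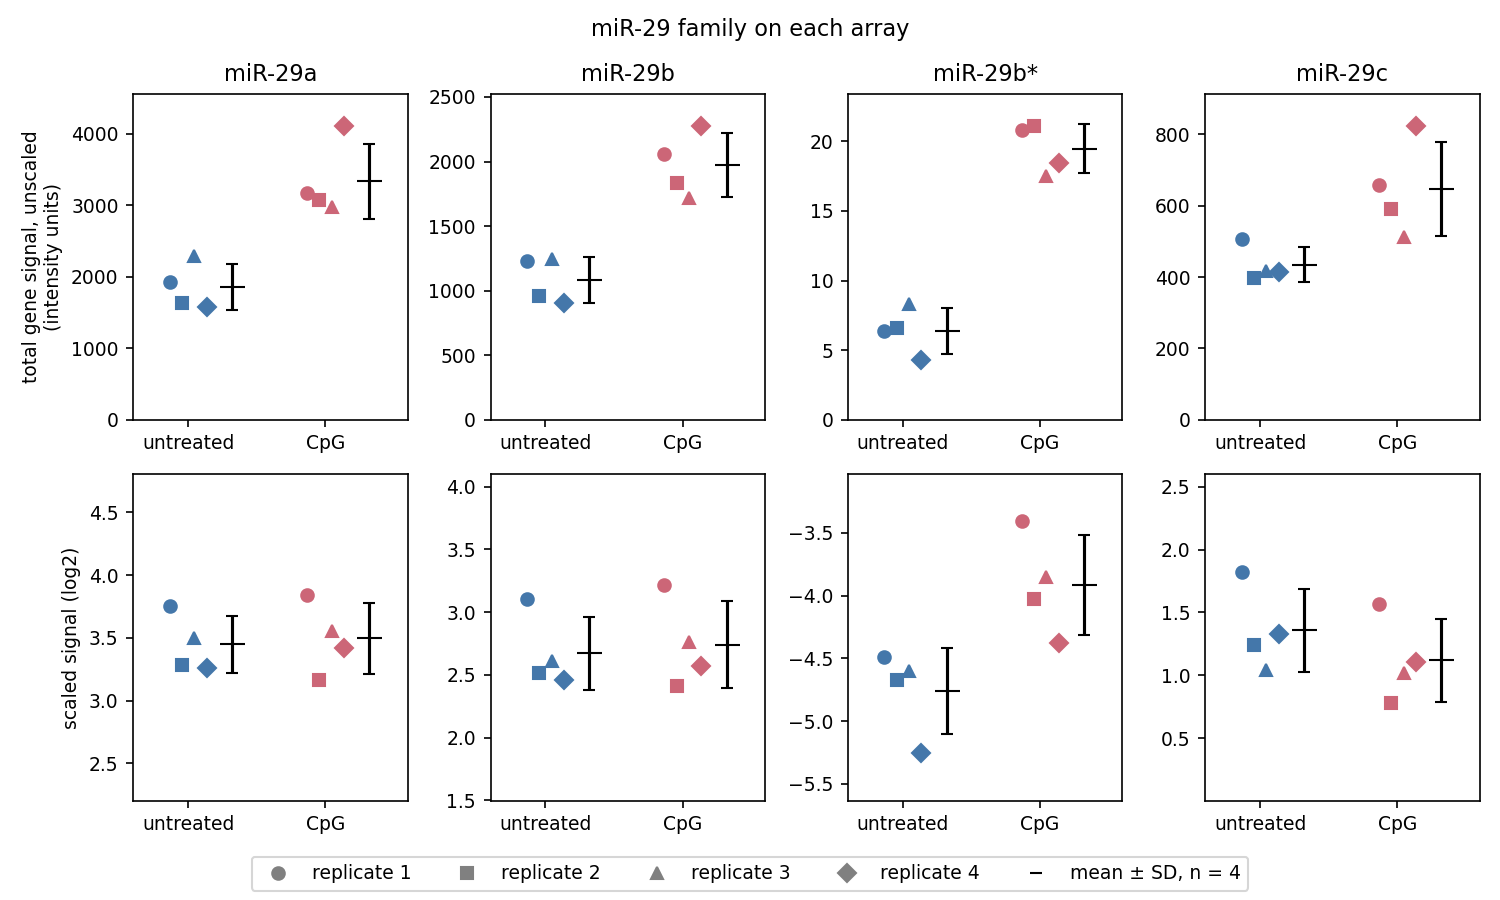
Signal of each miR-29 member on each of the 8 arrays, with 1 point per array, marker shape for the replicate number, and bars for the mean ± SD (n = 4). The upper row gives the deposited total gene signal without scaling (intensity units, from 0) and the lower row the scaled signal (log2, 0 is the array's 75th percentile). CpG arrays lie above the untreated ones for all 4 members in the upper row, and for miR-29b* alone in the lower row.

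The 4 probes of miR-29b* aim at targets of 19 to 22 bases and behaved unequally. The probe for the 22-base target carried most of the signal, with 17.0, 15.9, 19.8 and 10.7 units untreated and 46.5, 48.4, 42.0 and 42.9 units with CpG before scaling. The untreated and CpG arrays did not overlap in these units, where 39.6% of the tested miRNAs also lay apart with CpG above. After scaling, its change was 0.74 and CpG replicate 4, at -2.71, fell below untreated replicate 1, at -2.58 (exact two-sided permutation p = 0.0571).

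The probe for the 21-base target had 2.84, 2.46, 3.54 and 2.07 units untreated and 12.4, 12.2, 9.51 and 10.6 units with CpG. After scaling its change was 1.26 with no overlap, at the smallest p that 4 against 4 arrays allow (exact two-sided permutation p = 0.0286). On that probe 0 of 20 untreated spots and 17 of 20 CpG spots were well above background, so the untreated level is only a bound, and against that bound no fold above 1 could be given. The probes for the 19-base and 20-base targets averaged between -0.12 and 0.21 units in each group, with 0 spots well above background.

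**Figure D2:**
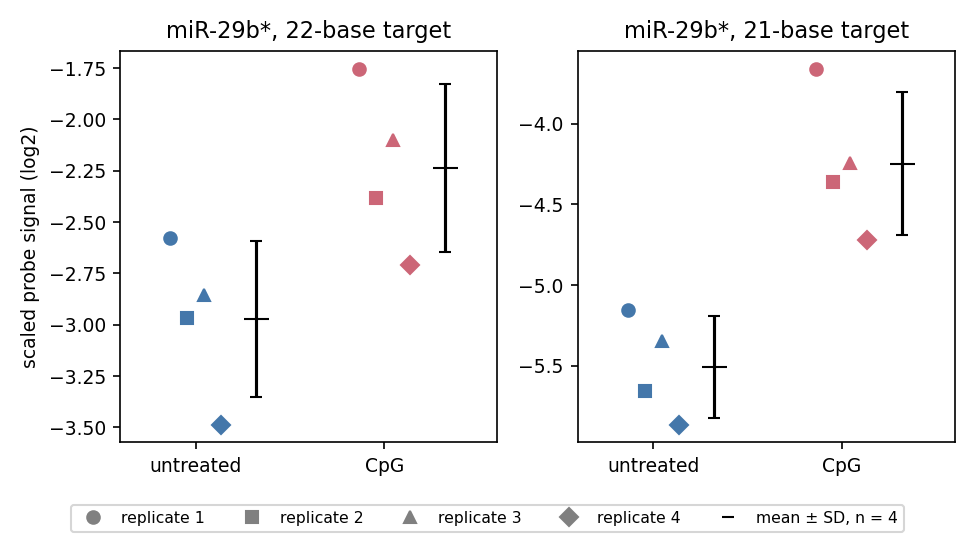
Scaled signal (log2) of the brighter probes of miR-29b* on each array, with bars for the mean ± SD (n = 4). Panels are the probe for the 22-base target, where CpG replicate 4 lies below untreated replicate 1, and the probe for the 21-base target, where the groups lie apart and 0 of 20 untreated spots were well above background.

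The probes of the guides moved together. The changes were 0.07 and 0.04 for the 2 probes of miR-29a, 0.12 and 0.07 for those of miR-29b, and -0.23 and -0.25 for those of miR-29c. All 20 spots of each guide were well above background on every array and 0 were saturated. For miR-29b* 20% to 25% of the spots on an untreated array and 45% to 50% on a CpG array were well above background.

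Differences between arms on the same array do not depend on scaling by an array factor. The log2 difference of miR-29b* minus miR-29b was -7.59, -7.19, -7.22 and -7.71 untreated and -6.63, -6.44, -6.62 and -6.94 with CpG. All 4 CpG values lay above all 4 untreated ones. The mean moved from -7.43 ± 0.26 to -6.66 ± 0.21 (SD, n = 4 each), a change of 0.77 (SE 0.17), or 1.71-fold in the ratio of the arms (exact two-sided permutation p = 0.0286, the smallest possible). The level of the difference depends on the probes and is not a ratio of molecules.

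The change of this arm difference was 0.87 in slide row 1 and 0.67 in slide row 2, each holding both groups. Leaving out 1 array gave 0.68 to 0.87. Taking the brightest probe of each arm, an alternative chosen after seeing the data, gave 0.67 with the groups still apart. It fell to 0.46 with cyclic loess (exact permutation p = 0.0571), and was below 0 under normexp, at -0.13 with nothing added (exact permutation p = 0.371), -0.18 with 50 units added and quantile normalization (p = 0.343), and -0.63 with 50 units added and the percentile scaling (p = 0.0286). The cause was not tested beyond the control spot signals given above.

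The arm difference of miR-29c overlapped between the groups. miR-29c*, which comes from the chromosome 1 cluster, was also detected on all 8 arrays, and it averaged 7.10 ± 0.53 units untreated and 10.9 ± 3.06 units with CpG (SD, n = 4 each) before scaling, with the CpG arrays above the untreated ones. Its scaled change was -0.22 (SE 0.24, limma adjusted p = 0.484). The difference of miR-29c* minus miR-29c was -5.55, -5.37, -5.35 and -5.57 untreated and -5.27, -5.54, -5.57 and -5.36 with CpG. Its change was 0.03 (SE 0.09, exact permutation p = 0.686) with the groups mixed.

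Set directly against each other on the same array, miR-29b* minus miR-29c* was -0.76, -0.54, -0.30 and -1.02 untreated and 0.29, 0.73, 0.70 and -0.12 with CpG. The CpG values all lay above the untreated ones, and the change was 1.06 (SE 0.25, exact permutation p = 0.0286). This contrast was chosen after its values were seen. Both arms lie near background, and no value of the contrast under normexp is given. Under normexp with nothing added, the miR-29c* probes averaged 12.7 and 19.4 units untreated and 15.6 and 24.6 units with CpG before scaling. miR-29a*, the star arm beside miR-29b* in the chromosome 6 cluster, was detected on 0 arrays, so its arm difference has no value.

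**Figure D3:**
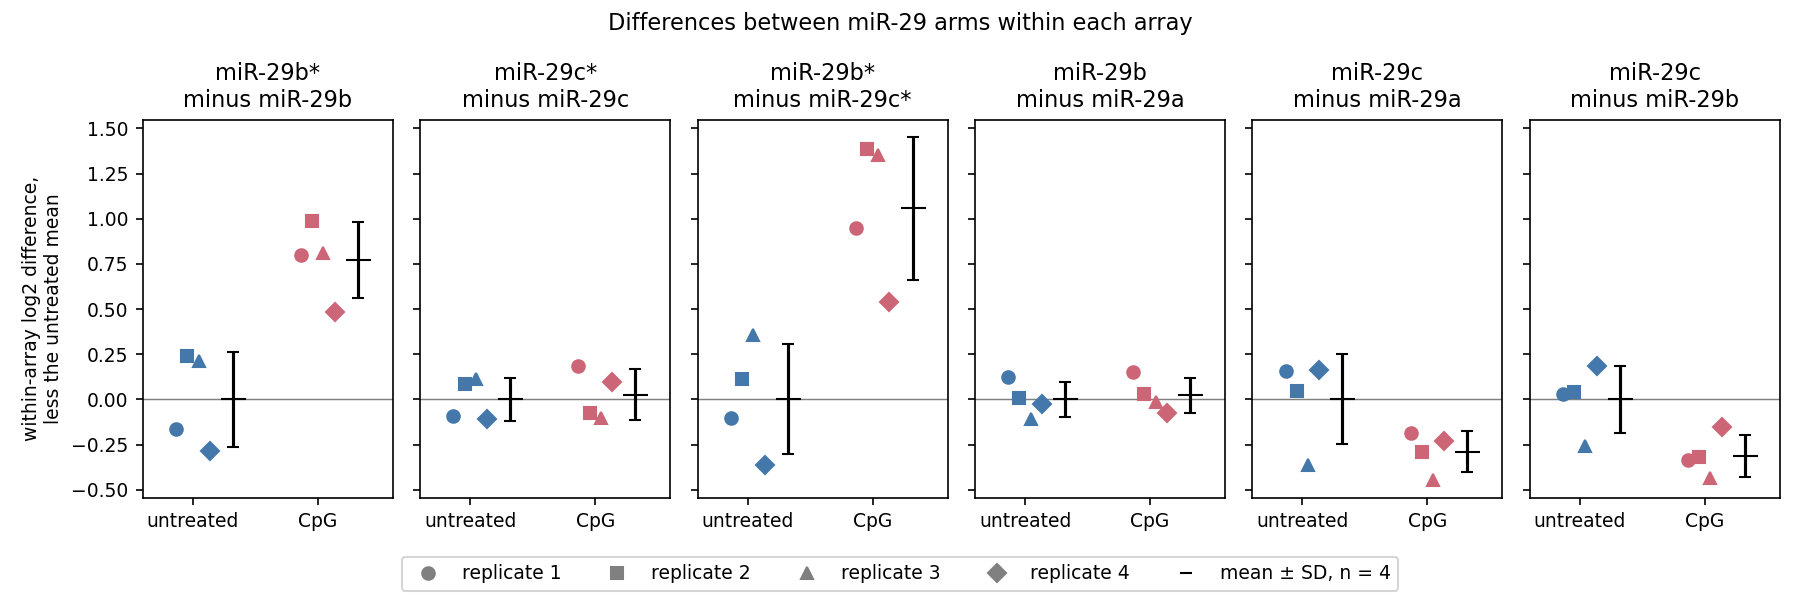
Within-array log2 differences between arms of the family on each array, less the mean of the untreated arrays, with bars for the mean ± SD (n = 4). The panels with miR-29b* show the CpG arrays apart from and above the untreated ones. The miR-29c arm difference and miR-29b minus miR-29a overlap, each with 1 CpG array above all untreated ones. The panels of miR-29c minus miR-29a and miR-29c minus miR-29b have a lower mean with CpG, with overlap.

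miR-29b was 1 of 21 miRNAs with both arms tested. The starred arm was relatively higher with the groups apart in 4 of the 21 (19.0%), and the groups lay apart in either direction in 33.3%. Counted from the most positive change, miR-29b ranked 5, after let-7d, miR-21, miR-30b and let-7b. Among the other 20 pairs, 14 changes were above 0 and 6 below, with a median of 0.24. The groups lay apart upward for miR-21 (0.87), miR-30b (0.86) and miR-22 (0.69), and downward for miR-7a (-0.67), miR-674 (-1.08) and miR-877 (-1.35).

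A star in these older names does not always mark the less abundant arm. Of the 28 star arms tested, 4 were called higher and 1 lower, where 7.55% and 6.60% of all tested miRNAs were. The star arms had a median change of 0.25. The 184 unstarred names had a median of -0.23. The changes also went with brightness, with a median of -0.03 in the dimmest 71 miRNAs, where miR-29b* lies, and of -0.32 in the brightest 71, where the guides lie. The part of brightness in the arm difference was not tested.

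**Figure D4:**
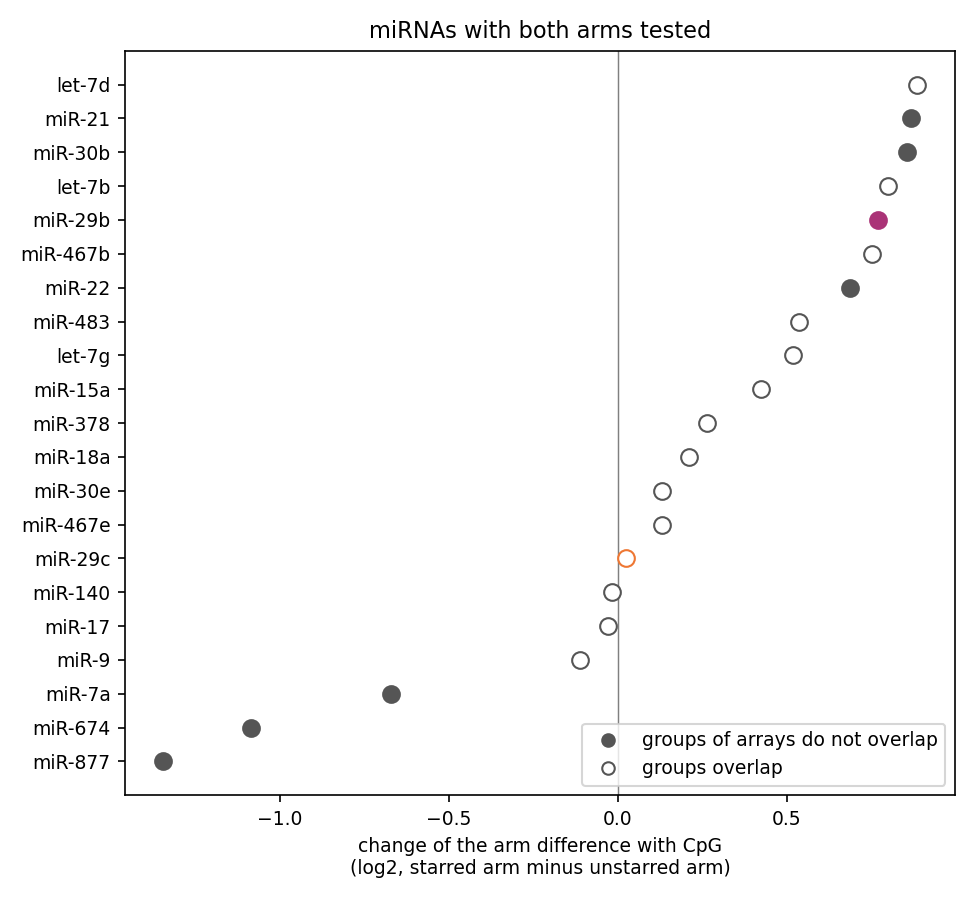
Change with CpG of the within-array difference between the starred and unstarred arm (log2) for the 21 miRNAs with both arms tested, sorted by size. Filled points are miRNAs whose untreated and CpG arrays do not overlap; miR-29b (purple, 0.77) is filled and miR-29c (orange, 0.03) is open.

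No pair of guides differed in its change beyond the threshold, and miR-29c had the lowest change of the 3. After adjustment over the 3 pairs, 1 pair alone at the smallest exact permutation p of 0.0286 could not pass. The test therefore does not show that the guides changed alike. miR-29b minus miR-29a was -0.65, -0.77, -0.88 and -0.80 untreated and -0.62, -0.75, -0.79 and -0.85 with CpG, a change of 0.02 (SE 0.07, exact permutation p = 0.714, adjusted p = 0.714 over the 3 guide pairs). miR-29c minus miR-29b was -1.28, -1.27, -1.57 and -1.13 untreated and -1.65, -1.63, -1.75 and -1.47 with CpG. Of its CpG values 3 of 4 lay below all untreated ones, and its change was -0.31 (SE 0.11, exact permutation p = 0.0571, adjusted p = 0.171).

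For miR-29c minus miR-29a the change was -0.29 (SE 0.14, exact permutation p = 0.114, adjusted p = 0.171), from -1.93, -2.04, -2.45 and -1.93 untreated to -2.27, -2.38, -2.54 and -2.32 with CpG. Untreated replicate 3 overlapped with the CpG group in both miR-29c pairs. Without that array the changes were -0.41 and -0.40 against miR-29a and miR-29b. Against miR-29b, leaving out CpG replicate 4 instead also set the groups apart, with a change of -0.36. Since the groups lie apart by these choices, no p is read from them. Against miR-29a, leaving out any other array gave exact permutation p of 0.114 to 0.229. Against miR-29b, leaving out any array but untreated replicate 3 and CpG replicate 4 gave an exact permutation p of 0.0857.

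Without scaling between arrays the picture of the guides was another. The deposited total gene signal of miR-29a was 1931, 1637, 2289.9 and 1580.3 units untreated and 3174, 3076, 2974 and 4105 units with CpG. That of miR-29b was 1229.9, 960.0, 1242 and 907 units untreated and 2059, 1831, 1721 and 2274 units with CpG. That of miR-29c was 506, 398, 418 and 415 units untreated and 657, 591, 512 and 823 units with CpG. In each case all CpG arrays were brighter than all untreated ones, as for 39.6% of all tested miRNAs in unscaled signal.

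The passenger arm had the largest log2 change of the 4 members without scaling. miR-29b* was at 6.38, 6.58, 8.35 and 4.32 units untreated and 20.8, 21.1, 17.5 and 18.5 units with CpG. Tested without scaling, the log2 changes were 0.85 for miR-29a (limma adjusted p = 0.0156), 0.87 for miR-29b (0.0124), 1.64 for miR-29b* and 0.56 for miR-29c (0.0552). Of all 212 miRNAs 41.5% were called higher in that fit and 0 lower, with a median change of 0.60. In the authors' series table, which is also unscaled, 43.9% were called higher, among them miR-29a, miR-29b and miR-29b*. The changes of the guides were near or somewhat above that median, as they were with scaling.

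Scaling to 4 bright control features named hur, which were 1.15 to 1.23 times as bright in the CpG group, left 32.1% of miRNAs called higher and a median change of 0.36. There the changes were 0.60 for miR-29a, 0.63 for miR-29b, 1.40 for miR-29b* and 0.31 for miR-29c, and the first 3 passed the threshold. What the hur features are is not stated in the sources used here. Whether the brighter CpG arrays held more miRNA per cell or more labelled RNA cannot be told apart, so the guides are described only relative to the other miRNAs.

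**Figure D5:**
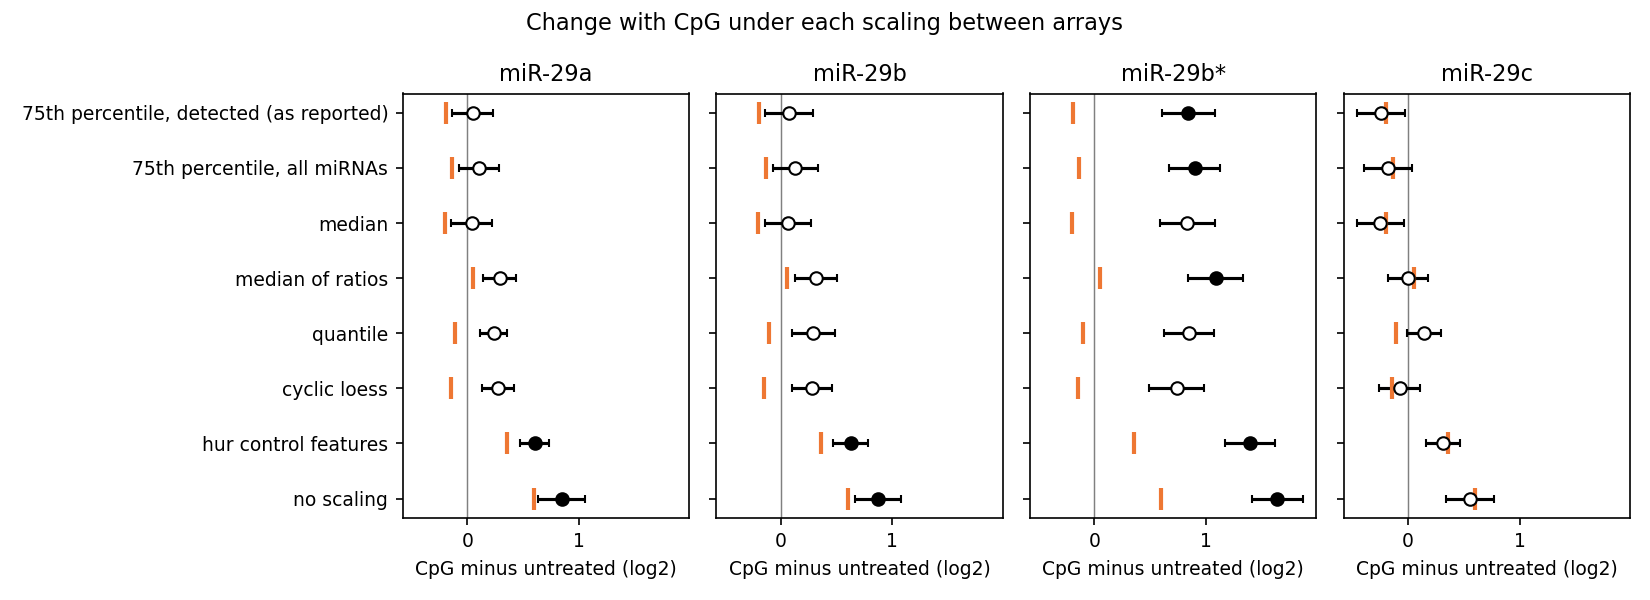
Change with CpG of each member (log2, CpG minus untreated, bars are ± 1 SE) under 8 ways of scaling the arrays to each other. Filled points have a limma adjusted p under 0.05, and the orange tick is the median change of the 212 tested miRNAs. Under each of the 8, miR-29b* lies furthest above the tick, miR-29a and miR-29b lie above it and miR-29c lies on either side of it. The changes of miR-29a and miR-29b pass the threshold only with no scaling or hur scaling.

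The pattern of the guides over the 8 arrays was closest to that of miR-22. Likeness was the root mean square difference of profiles, each centred on its own mean, over 173 other miRNAs detected on all 8 arrays. From the mean of the guides it was 0.057 for miR-22, 0.087 for miR-24-1*, 0.11 for miR-181a, 0.12 for miR-142-5p and 0.12 for miR-146b, where the median miRNA stood at 0.36. For miR-29b* the closest were miR-222 (0.27), miR-22* (0.27) and miR-125a-3p (0.30), with a median of 0.65.

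Among the members, miR-29a and miR-29b differed by 0.084, miR-29b and miR-29c by 0.21 and miR-29a and miR-29c by 0.22. The distance of miR-29b* was 0.44 from miR-29b, 0.45 from miR-29a and 0.63 from miR-29c. The guide from both clusters was thus nearer to the guide of chromosome 6 than to that of chromosome 1 over these arrays. These distances share their arrays and have no test.

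Some miRNAs known to respond to Toll-like receptors rose in the same samples. Of 12 listed, 11 were tested, 4 were called higher and 0 lower, with a median of -0.04, where 7.55% of all tested miRNAs were called higher and their median was -0.19. The other 7 tested did not pass. miR-155, a miRNA induced in activated myeloid cells, rose by 1.92 (SE 0.24, limma adjusted p = 9.56e-04), and miR-222 rose by 1.14 (adjusted p = 0.0111). miR-147 rose by 0.97 (adjusted p = 0.0227), and miR-146a, which targets adaptors of Toll-like receptor signalling, rose by 0.92 (adjusted p = 0.0355). The miR-29b* change of 0.84 differed from the last of these by less than either standard error.

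Other miRNAs that target DNA methyltransferases or the histone methyltransferase Ezh2 were listed beside miR-29 for their shared kind of target. All 7 were tested, 1 was called higher and 1 lower, and their median change was -0.30, where 7.55% and 6.60% of all tested miRNAs were called higher and lower. miR-101b, which targets Ezh2, was higher by 0.75 (SE 0.16, limma adjusted p = 0.0227). miR-26a, which also targets Ezh2, fell by 0.60 (SE 0.16, limma adjusted p = 0.0375). Their paralogues, miR-101a at 0.30 (limma adjusted p = 0.190) and miR-26b at -0.35 (limma adjusted p = 0.112), did not pass. The miR-148 and miR-152 entries, which target Dnmt1 or Dnmt3b, had changes of -0.06 for miR-148a, -0.30 for miR-148b and -0.34 for miR-152 and did not pass.

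The myeloid miRNAs miR-223, miR-142-3p and miR-142-5p were detected on all 8 arrays. Their summed scaled signal was 19.3 to 22.6 untreated and 14.3 to 17.7 with CpG, and miR-223 fell by 0.60 (SE 0.15, limma adjusted p = 0.0284). The changes of miR-142-3p, -0.20 (limma adjusted p = 0.273), and miR-142-5p, -0.02 (0.926), did not pass. The median of all tested miRNAs was -0.19. Lymphoid markers were 2 of 3 detected with miR-150 on 0 arrays, and their sum was 1.28 to 1.58 untreated and 0.96 to 1.58 with CpG. Of epithelial markers 3 of 5 were detected, at a sum of 0.093 to 0.12 untreated and 0.076 to 0.087 with CpG. Muscle markers were 1 of 3 detected (miR-206), while 0 of 2 erythroid, 0 of 2 endothelial and 0 of 4 stromal and fibroblast markers on the array were detected. The part of these markers in the miR-29 values was not tested.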

How the data were processed

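The authors deposited each array's scanner output from Agilent Feature Extraction, version 9.5.3.1 per the file headers. Its processed signal is a spot intensity from which background and a spatial trend have been subtracted. A deposited summary lists each miRNA's total gene signal and whether it was detected. The 2080 intensities of the authors' series table equalled that total signal within 0.1% or stood at 0.01. The submitters' processing notes name limma, with no version.

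Processed signals of unflagged spots were averaged per probe and then per miRNA. Each array was then divided by its 75th percentile, taken over the 177 mouse miRNAs that every array detected. Values were held at or above a floor of 0.0107 (log2 of -6.55), and log2 was taken. A fit with limma (version 3.58.1, R version 4.3.3, lmFit followed by eBayes) compared the groups for 212 mouse miRNAs, those detected on 3 or more arrays of either group. Its two-sided p-values were adjusted by Benjamini-Hochberg over all 212, with a threshold of 0.05. The script of this fit was tested on simulated data. For within-array differences, all 70 arrangements of the arrays gave an exact two-sided permutation test, whose smallest p is 0.0286. All arrays were on 1 slide with 1 scan time, and slide rows 1 and 2 were examined as blocks. The number of arrays limits the precision.

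The members, lists and alternatives were chosen with earlier results of these data known. Named miRNAs are the 4 members, the 5 non-members most like the guides and the 3 most like miR-29b*, and members of the lists and arm pairs past the threshold or with groups apart. Others were named after their values were seen. These are the other members of the methyltransferase list, miR-150, miR-206, miR-142-3p, let-7d, let-7b, miR-29c* and miR-29a*. Alternatives were other scalings, backgrounds, summaries, filters, floors and limma options, blocks, and leaving out each array.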

Additional observations from a re-analysis of the deposited data

How the results depend on the processing

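The count of miRNAs called, 30 as reported, was 88 with no scaling, 18 with median scaling, 19 with quantile normalization, 70 with the hur features, 138 with normexp (50 units added) and the 75th percentile, 93 with normexp and nothing added, 12 with normexp and quantile normalization, 93 with the authors' series table, 2 with the median over spots, 3 with no filter and 48 with a floor set 2 times higher. Of these, 88, 11, 9, 68, 6, 7, 7, 93, 2, 2 and 14 were higher, in that order. Leaving out 1 array gave 5 to 71.

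For miR-29a the log2 change as reported was 0.05, against 0.85 with no scaling, 0.60 with the hur features, 0.85 with the series table and -0.032 within slide row 2, and -0.073 to 0.20 leaving out 1 array. For miR-29b it was 0.87 with no scaling, 0.63 with the hur features, 0.87 with the series table and -1.16 with the median over spots, and -0.094 to 0.26 leaving out 1 array. For miR-29c the sign turned to 0.56 with no scaling, 0.0037 with the median of ratios, 0.14 with quantile normalization, 0.31 with the hur features, 0.12 with normexp and quantile normalization and 0.56 with the series table. Leaving out 1 array gave -0.40 to -0.039.

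For miR-29b*, 0.84 as reported, the call was lost with median scaling (0.83), quantile normalization (0.85), cyclic loess (0.74), normexp with quantile normalization (0.10), the median over spots (0.81), no filter (0.84) and the slide row as a block (0.84). It turned to -0.40 with normexp and the 75th percentile and to -0.021 with normexp and nothing added. Leaving out 1 array gave 0.67 to 0.99. The arm difference of miR-29b, 0.77 as reported, was 0.46 with cyclic loess and 1.97 with the median over spots, both not past the threshold. It turned to -0.63, -0.18 and -0.13 with normexp and the 75th percentile, normexp and quantile normalization, and normexp with nothing added. Leaving out 1 array gave 0.68 to 0.87.

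miR-29b minus miR-29a turned to -1.41 with the median over spots and ranged from -0.021 to 0.064 leaving out 1 array. miR-29c minus miR-29b turned to 0.88 with the median over spots and ranged from -0.40 to -0.25. miR-29c minus miR-29a ranged from -0.41 to -0.24. The median over spots falls between a bright and a dim probe of miR-29b. The other causes were not tested.

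With the replicate number as a block, miR-29b* had an adjusted p of 0.0165, 38 miRNAs were called, and no other call of a member changed. With this block the SEs of miR-29a, miR-29b, miR-29b* and miR-29c were 0.11, 0.11, 0.12 and 0.12. Without it they were 0.18, 0.21, 0.24 and 0.22. The authors' column names give an untreated and a CpG sample the same DC number. Over all tested miRNAs, deviations of same-numbered arrays correlated at 0.28, -0.26, 0.25 and 0.10 for replicates 1 to 4. By this measure 0 of 4 pairs matched best with their own number. Whether the numbers pair the samples is not settled by these values, and the main fit took the samples as unpaired. For within-array differences the smallest p is 0.125 with replicate blocks and 0.0556 with slide rows, so these permutations could not pass the threshold. miR-29b* spots lie near background, which limits its values more than those of the guides.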
